A study of Homo sapiens with 6 samples.

Results

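The genes described here are the 4 kinases that phosphorylate the translation factor eIF2 (EIF2AK1, EIF2AK2, EIF2AK3 and EIF2AK4) and 5 genes whose products bind, edit or unwind double-stranded RNA or join such proteins in complexes (ADAR, ADARB1, PRKRA, ILF2 and DHX9). They were taken by symbol, and all 9 were found among the 26485 gene symbols of each count table and passed the filter on low counts. RNA was sequenced from AF22, an established human line of neural stem cells, in 6 libraries. The tested libraries are 3 from AF22 cells labelled as a COMMD3/COMMD3-BMI1 knockdown, and the others are 3 from AF22 cells labelled shControl, a control short hairpin RNA, with a wild-type genotype. The labels describe neither the knockdown reagent nor a treatment or time, and all 6 libraries come from a single line, so they stand for 1 genetic background.

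The eIF2 kinases each answer to a different stress: EIF2AK1 (HRI) to haem shortage and mitochondrial stress, EIF2AK2 (PKR) to double-stranded RNA, EIF2AK3 (PERK) to unfolded protein in the endoplasmic reticulum, and EIF2AK4 (GCN2) to uncharged tRNA and stalled ribosomes. Phosphorylated eIF2 slows the start of translation on most mRNAs while the mRNA of the transcription factor ATF4 is translated more, a programme called the integrated stress response. EIF2AK2 and ADAR are both known as interferon-inducible genes, and ADAR, which converts adenosine to inosine in double-stranded RNA, is known to keep the cell's own RNA from activating PKR and the RNA sensors. Transcript counts do not measure kinase or editing activity.

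EIF2AK2 rose to 2.355 times its control level in knockdown cells and ADAR to 1.428 times, while EIF2AK4 fell to 85.5% and PRKRA to 87.23% of control. The other 5 genes, EIF2AK1, EIF2AK3, ADARB1, ILF2 and DHX9, did not pass the test. Of the 9 genes, 2 were thus higher and 2 lower (quasi-likelihood test of edgeR, with p adjusted after Benjamini and Hochberg and a threshold of 0.05). Among all 13632 genes tested, 15.3% were called higher, 18.1% lower and 33.3% in either direction. With scaling by library size alone, the balance turned to 2505 genes higher and 2188 lower, against 2084 and 2461 here. The number of calls among the 9 genes is close to what that background holds, and the sizes of the individual changes carry the description. At a change of 1.5-fold or more, EIF2AK2 alone was called, against 2.33% of all genes higher and 2.57% lower. The median log2 fold change of the 9 genes was −0.04, against 0.0015 over all genes tested. The 2 groups of libraries did not overlap for 4 of the 9 genes, the same 4 that passed, against 44.3% of all genes tested.

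**Figure D1:**
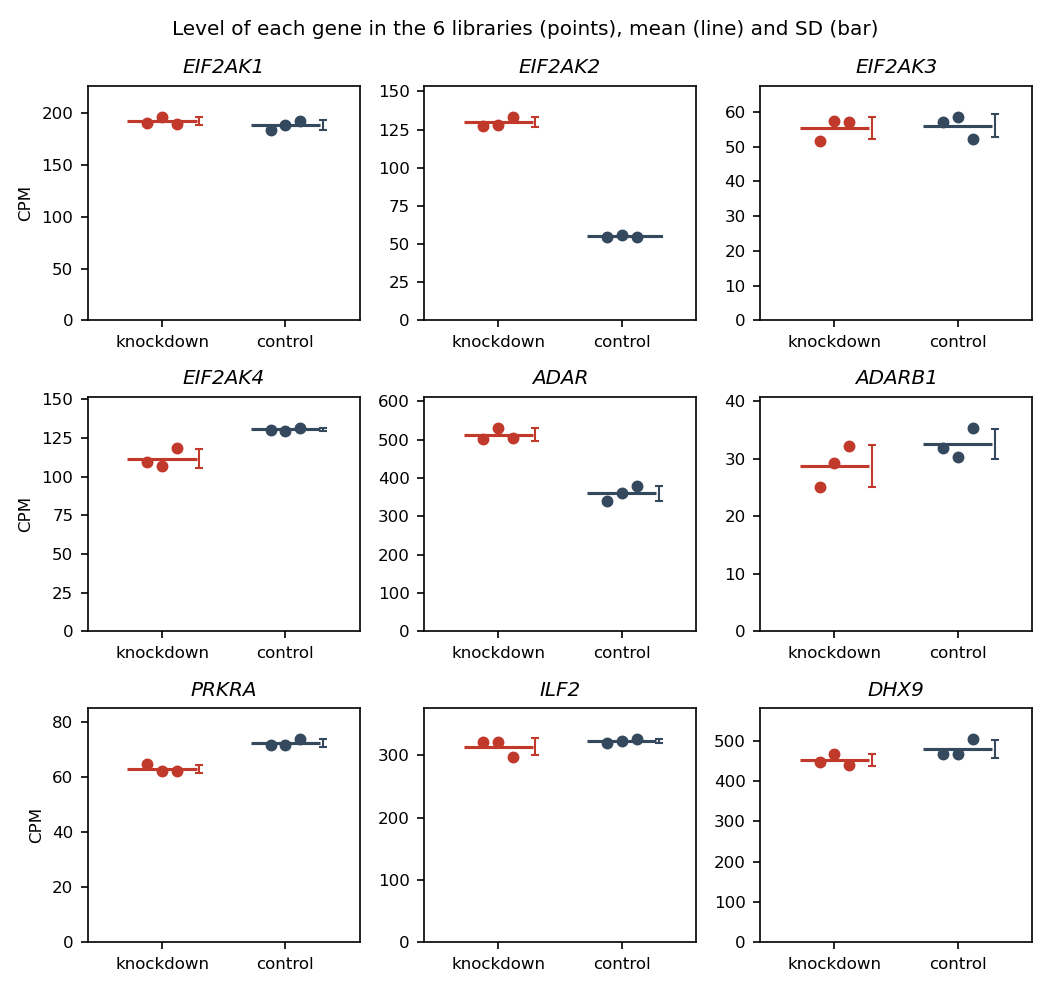
Level of each of the 9 genes in CPM (vertical axes from 0) in the 3 knockdown libraries (red, left) and the 3 control libraries (dark, right), with the mean as a line and the SD as a bar. EIF2AK2 and ADAR sit higher in all 3 knockdown libraries, EIF2AK4 and PRKRA sit lower, and the groups overlap for the other 5 genes.

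The libraries held between 7294687 and 11579849 counts, and 1.26% to 1.36% of a library's counts fell on its 10 most abundant genes. Levels are given in CPM, counts scaled to library sizes adjusted by TMM, the scaling used in the test. COMMD3, the gene named by the knockdown, had 12.88, 11.29 and 10.49 CPM in the knockdown libraries, against 31.68, 29.71 and 27.6 CPM in the control libraries, lower in each knockdown library than in any control library. BMI1 averaged 104.8 ± 1.79 CPM in knockdown and 110.2 ± 2.41 CPM in control (SD, n = 3 each). It did not pass (edgeR adjusted p = 0.206), though each of its knockdown libraries lay below each control library. COMMD3-BMI1 was listed at 0 in all 6 libraries. In GENCODE v29, all 1904 exon bases of COMMD3-BMI1 are shared with genes on its own strand, so its 0 may come from how shared reads were assigned, and the check of the labels rests on COMMD3 alone. All 12 neural stem cell markers passed the low-count filter, and 1 rose and 4 fell, with summed levels of 2930 to 3010 CPM in knockdown and 2962 to 3176 CPM in control. The 8 leukocyte markers summed to between 0.524 and 0.698 CPM in knockdown and between 0.863 and 1.485 CPM in control, and CD3E was at 0. Of 5 endothelial markers 4 were tested and 3 of these fell, with sums over all 5 of 92.64 to 105.2 CPM in knockdown and 137.1 to 144.6 CPM in control. Other marker sums were also lower, with 46.29 to 55.29 CPM in knockdown and 73.02 to 76.92 CPM in control for astrocytes, whose GFAP was at 0, and 22.23 to 25.65 CPM in knockdown and 30.13 to 33.71 CPM in control for neural crest. Sums were 155.4 to 162.5 CPM in knockdown and 177.1 to 187.6 CPM in control for the oligodendrocyte lineage, 633.6 to 662.7 CPM in knockdown and 680.5 to 728.2 CPM in control for neurons, and 208.5 to 227.8 CPM in knockdown and 231.4 to 253.6 CPM in control for fibroblasts. The sum of the pluripotency markers was higher, with 635.1 to 693.2 CPM in knockdown and 531.3 to 535.5 CPM in control. Of these markers LIN28A alone was called higher, averaging 456.8 CPM in knockdown and 303.6 CPM in control. POU5F1 was called lower, with 45.69 CPM in knockdown and 59.08 CPM in control. DPPA4 did not pass, and NANOG and TDGF1 averaged under 1 CPM. The part of these marker sets in the results was not tested. In bulk RNA, fewer cells of a type and less RNA per cell cannot be told apart. Separate cultures are not stated in the labels, so the p-values speak only for the variation among these 6 libraries, and that variation may be technical.

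EIF2AK2 lies on chromosome 2 of GRCh38, from 37099210 to 37157065 on the minus strand (GENCODE v29, ENSG00000055332), and its principal transcript has 17 exons. The stretch around its start in RefSeq is shown because it holds the core of the element through which interferon-activated factors are known to bind DNA, the interferon-stimulated response element. Searched as GAAA, any 2 bases and GAAA again, on both strands, the word was found in 3.57% of 35116 promoter windows of 300 bases (250 before a start and 50 after it) from RefSeq on GRCh38.p14, and in at least 1 window of 4.38% of 27305 genes. Windows were given for 8 of the 9 genes, all but EIF2AK1, and EIF2AK2 was the 1 gene of these with a match, which begins 6 bases before the RefSeq start of that window. The RefSeq starts used here for EIF2AK2 and ADAR lie inside the spans that GENCODE gives these genes, so the match in EIF2AK2 lies within its GENCODE span, downstream of the outermost GENCODE start. ADAR, the other gene that rose, had 3 windows and no match in any, which says only that these letters are not in those windows. The ADAR stretch shown is around the start of 1 of these 3 windows. Whether any of them holds an interferon-inducible start was not tested. The stretches run from 110 bases before the RefSeq start to 30 bases after it, 5′ to 3′ on the minus strand, with matches in capitals.
EIF2AK2, chr2:37156951-37157090: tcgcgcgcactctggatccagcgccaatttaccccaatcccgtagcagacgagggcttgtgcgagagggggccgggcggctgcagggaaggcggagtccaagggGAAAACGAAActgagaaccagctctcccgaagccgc
ADAR, chr1:154627968-154628107: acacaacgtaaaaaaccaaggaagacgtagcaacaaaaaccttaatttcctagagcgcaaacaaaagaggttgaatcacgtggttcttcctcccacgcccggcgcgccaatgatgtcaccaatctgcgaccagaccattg

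For comparison, stretches are shown from 3 interferon-stimulated genes, ISG15 (a ubiquitin-like modifier), OAS3 (which makes the messenger that activates RNase L) and IFIT1 (which binds foreign RNA), on the plus strand, beside that of EIF2AK2. Capitals again mark the word on either strand, and where 2 matches overlap, as in ISG15, they form 1 longer run.
EIF2AK2, chr2:37156967-37156996: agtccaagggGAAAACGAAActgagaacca
OAS3, chr12:112938452-112938481: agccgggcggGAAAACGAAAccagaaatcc
ISG15, chr1:1013374-1013409: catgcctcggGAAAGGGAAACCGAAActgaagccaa
IFIT1, chr10:89392497-89392539: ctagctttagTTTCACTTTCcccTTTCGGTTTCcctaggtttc
The 10 bases of the match in EIF2AK2 and in OAS3 are the same letters. The 3 genes shown for comparison all hold the word, and others that rose do not. Of the 10 interferon-stimulated genes listed for comparison, 8 had windows and 6 of these held the word, while STAT2 and IRF9 did not. OAS3 is from the list of sensors and effectors of double-stranded RNA described below, where 5 genes had windows and 3 held the word. OAS1, with a larger rise than OAS3, had a window without it. A match of letters is a description and was not tied to binding or to the change in level.

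EIF2AK2 had 127.6, 127.9 and 133.5 CPM in the knockdown libraries, against 54.91, 55.65 and 54.64 CPM in the control libraries. All 3 knockdown libraries stood well above all 3 control libraries, and the spread within either group was small, with a coefficient of variation of 2.56% in knockdown and 0.946% in control. The log2 fold change was 1.24 (SE 0.0482, 95% interval 1.14 to 1.33, edgeR adjusted p = 2.09e-19), resting on 3616 counts in knockdown and 1513 in control. By size of rise, EIF2AK2 ranked 103 among the 2084 genes called higher. Of its exon bases, 4.05% are shared with genes on the opposite strand, among them GPATCH11, a G-patch domain gene. The strand setting of the counting is not given in the sources used here, so reads from those bases may not have been told apart. GPATCH11 went the other way, averaging 18.11 ± 2.61 CPM in knockdown and 31.88 ± 2.27 CPM in control (SD, n = 3 each). Its log2 fold change was −0.83 (edgeR adjusted p = 3.88e-08). GPATCH11, and below it ATF4, TLR3, MAVS, STAT2 and ADARB2, were picked for naming with their values known.

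EIF2AK1 had 190.3, 196.6 and 189.9 CPM in the knockdown libraries, against 183.2, 188.9 and 192.7 CPM in the control libraries, and the groups overlapped. Its log2 fold change of 0.03 had a 95% interval of −0.06 to 0.12, a fold of 0.962 to 1.09 (edgeR adjusted p = 0.602). On chromosome 7 (6022244 to 6059230, minus strand), 9.59% of its exon bases are shared with AIMP2 on the other strand. EIF2AK3 had 51.73, 57.26 and 56.98 CPM in the knockdown libraries, against 57.07, 58.62 and 52.26 CPM in the control libraries, again with overlap. Its log2 fold change was −0.02 with a 95% interval of −0.15 to 0.10, a fold of 0.903 to 1.07 (edgeR adjusted p = 0.791). It lies on chromosome 2 (88556741 to 88627576, minus strand), where 15.07% of its exon bases are shared with opposite-strand genes that the tables do not list by those names. For both kinases a p that misses the threshold does not show equal levels.

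EIF2AK4 was the kinase that fell. It had 109.5, 106.8 and 118.4 CPM in the knockdown libraries, against 130.4, 129.8 and 131.8 CPM in the control libraries. The highest knockdown library stayed below the lowest control library, though knockdown replicate 3 lay nearer to control than the other two. The log2 fold change was −0.23 (SE 0.0463, 95% interval −0.32 to −0.13, edgeR adjusted p = 0.000308). The gene spans 39934146 to 40035591 of the plus strand of chromosome 15 and shares no exon base with another annotated gene.

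The makeup of the kinase transcripts therefore differed. EIF2AK2 made up 26.64%, 26.18% and 26.77% of the summed CPM of the 4 kinases in the knockdown libraries, against 12.9%, 12.85% and 12.67% in the control libraries. The difference of 13.72 percentage points had an exact two-sided permutation p of 0.1, the smallest that 3 against 3 libraries can give. The share of EIF2AK4 was 22.82% ± 0.935 in knockdown and 30.4% ± 0.363 in control (SD, n = 3 each), and that of EIF2AK1 was 39.34% ± 1.13 in knockdown and 43.78% ± 0.818 in control. The share of EIF2AK3 was 11.31% ± 0.472 in knockdown and 13.02% ± 0.787 in control. A share also falls when another member rises, so these shares do not show whether EIF2AK1 and EIF2AK3 changed. The summed level of the 4 kinases was 488.8 ± 9.81 CPM in knockdown and 430.0 ± 3.87 CPM in control, with no overlap (exact two-sided permutation p = 0.1). Of the 4 kinases, EIF2AK2 alone was called higher and EIF2AK4 was called lower, so the sum does not show a rise of the whole set.

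**Figure D2:**
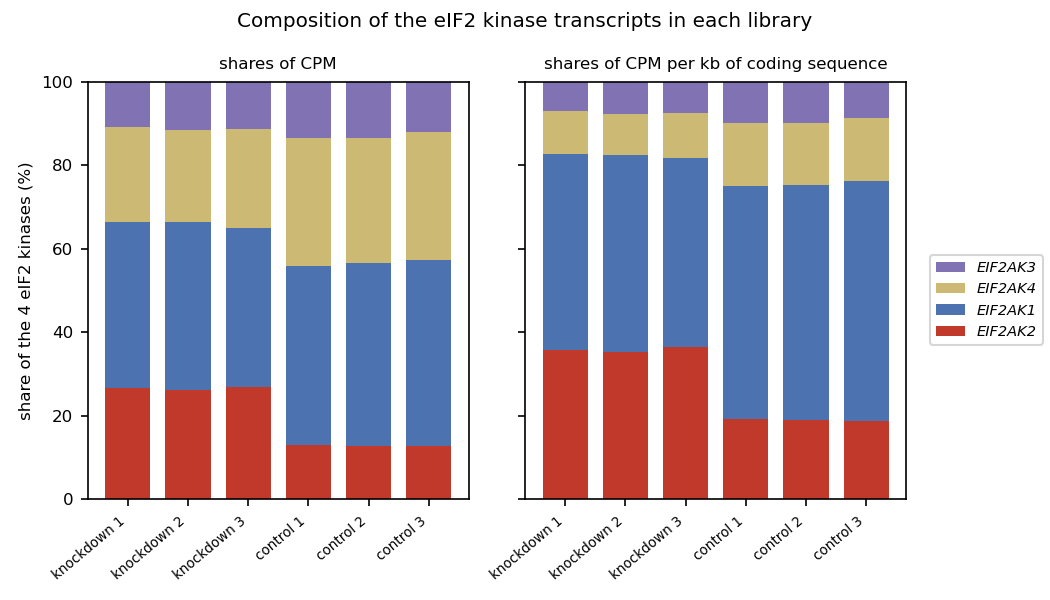
Share of each eIF2 kinase in the sum of the 4 (vertical axis, percent), for each library, by CPM (left) and by CPM per kilobase of coding sequence (right), with knockdown libraries left of control libraries in each panel. The red part, EIF2AK2, takes 26.18% to 26.77% of CPM in the knockdown libraries and 12.67% to 12.9% in the control libraries.

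Between genes, levels were compared per kilobase of the exons of the principal transcript. In knockdown cells the order was ILF2 (189.0 CPM per kb), DHX9 (106.0), ADAR (76.9), EIF2AK1 (43.0), PRKRA (34.5), EIF2AK4 (20.3), EIF2AK2 (12.9), EIF2AK3 (11.9) and ADARB1 (4.19 CPM per kb). In control cells the order by CPM per kb was the same except that EIF2AK3, at 12 CPM per kb, stood above EIF2AK2, at 5.48 CPM per kb. The library ranges of neighbours in these orders did not overlap in either group. The annotated principal transcript of EIF2AK2 is long, with 1653 coding bases in 10042 exon bases, so its level per kb depends on the length used. Per kb of coding sequence EIF2AK2 had 78.5 ± 2.01 CPM in knockdown and 33.3 ± 0.315 CPM in control (SD, n = 3 each). On that scale it stood above PRKRA in knockdown, where PRKRA had 67.1 CPM per kb, and below PRKRA in control, where PRKRA had 77.1 CPM per kb. That scale divides all counts of a gene by its coding length, and whether they include reads outside the coding sequence is not given. Per kb of exons, EIF2AK2 stood below PRKRA in both groups. Also per coding kb, the library ranges of EIF2AK1 (99.6) and ADAR (97.8 CPM per kb) overlapped in control, as did those of EIF2AK3 (16.7) and ADARB1 (15.5 CPM per kb).

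**Figure D3:**
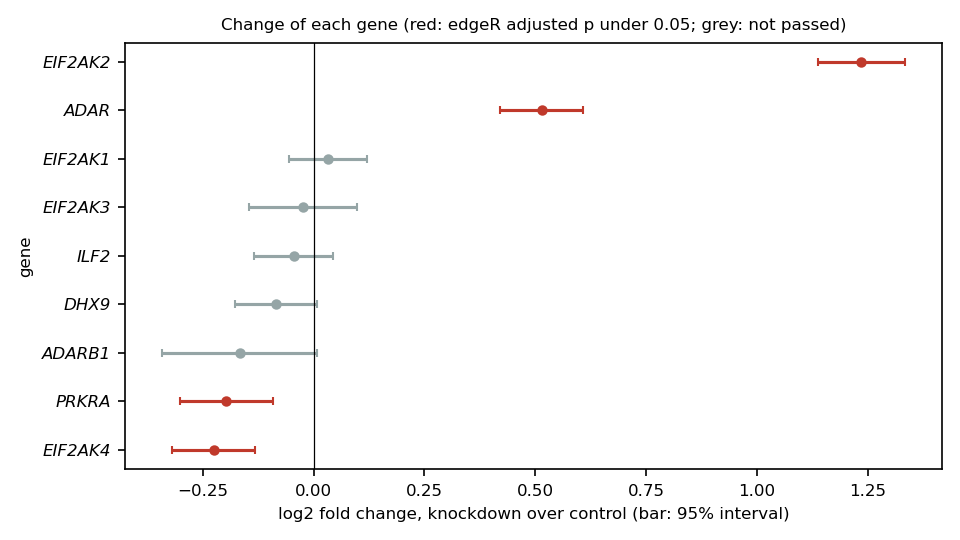
Log2 fold change of each of the 9 genes, knockdown over control (horizontal axis), with its 95% interval. EIF2AK2 (1.24) and ADAR (0.51) lie right of 0, EIF2AK4 (−0.23) and PRKRA (−0.20) lie left of it, and the intervals of the 5 grey genes include 0.

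Of the RNA-editing enzymes, ADAR rose and ADARB1 did not pass. ADAR had 502.3, 531.3 and 505.4 CPM in the knockdown libraries, against 340.2, 360.2 and 378.9 CPM in the control libraries. Every knockdown library lay above every control library, and the log2 fold change was 0.51 (SE 0.046, 95% interval 0.42 to 0.61, edgeR adjusted p = 2.74e-10). ADAR ranked 371 among the 2084 genes called higher. It is known to be transcribed from an interferon-inducible start, giving a longer protein, and from constitutive starts, giving a shorter one. The annotation holds 12 start positions of coding transcripts on chromosome 1 (154582057 to 154628013, minus strand), and counts per gene do not separate them. ADARB1, which edits glutamate receptor transcripts in the brain, had 25.03, 29.21 and 32.3 CPM in the knockdown libraries, against 31.86, 30.4 and 35.45 CPM in the control libraries. The groups overlapped, with knockdown replicate 1 lowest of all, and the log2 fold change was −0.17 (SE 0.0857, 95% interval −0.34 to 0.01, edgeR adjusted p = 0.137). It passed without knockdown replicate 3 (edgeR adjusted p = 0.0299), and was −0.07 without knockdown replicate 1, so single libraries decide this value. With 804 counts in knockdown and 888 in control, ADARB1 was the least covered of the 9 genes. The third gene of the family, ADARB2, had 10 counts over the knockdown libraries and 11 over the control libraries and was not tested.

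PRKRA (PACT), which binds double-stranded RNA and can activate PKR, fell a little. It had 64.71, 62.15 and 62.13 CPM in the knockdown libraries, against 71.57, 71.53 and 73.98 CPM in the control libraries. The groups did not overlap, and the log2 fold change was −0.20 (SE 0.0514, 95% interval −0.30 to −0.09, edgeR adjusted p = 0.00354). PRKRA lies on chromosome 2 (178431414 to 178451512, minus strand) and shares 5.51% of its exon bases with opposite-strand genes that the tables do not list by those names.

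ILF2 (NF45) works in RNA-binding complexes, and DHX9 is an RNA helicase with double-stranded RNA-binding domains that unwinds structured RNA. ILF2 had 320.9, 322.0 and 297.8 CPM in the knockdown libraries, against 320.7, 322.7 and 327.0 CPM in the control libraries. Knockdown replicate 3 lay below the other 5 libraries, and the log2 fold change was −0.04 (95% interval −0.13 to 0.04, edgeR adjusted p = 0.461). DHX9 had 446.3, 468.1 and 439.8 CPM in the knockdown libraries, against 466.8, 466.4 and 505.1 CPM in the control libraries. The groups overlapped by 1 knockdown library, and the log2 fold change was −0.09 (95% interval −0.18 to 0.01, edgeR adjusted p = 0.146). ILF2 and DHX9 lie on chromosome 1 (153661788 to 153671048 and 182839369 to 182887751), and processed pseudogenes named after them (2 for ILF2, 1 for DHX9) are not among the tables' symbols, so reads that match both copies are uncertain.

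Around the kinases, related genes were read from the same test, in which 15.3% of all genes were called higher and 18.1% lower. The counts of each list below are to be read beside those shares. Of 8 tested subunits of eIF2 and its exchange factor eIF2B, 1 rose and 7 missed the threshold. Their median log2 fold change was 0.03 (0.0015 over all genes). EIF2B4, a subunit of the exchange factor eIF2B, averaged 78.24 ± 3.38 CPM in knockdown and 69.35 ± 2.76 CPM in control (SD, n = 3 each; log2 fold change 0.18, edgeR adjusted p = 0.00738). That call was lost by DESeq2 (adjusted p = 0.0687) and without control replicate 1 (edgeR adjusted p = 0.0565). Of 7 genes of the eIF2 phosphatases and of factors that deliver initiator tRNA in other ways, 2 fell, none rose and 5 missed the threshold; the median was −0.08. PPP1CB, a catalytic subunit of protein phosphatase 1, averaged 470.2 ± 20.9 CPM in knockdown and 645.2 ± 30.8 CPM in control (log2 fold change −0.46, edgeR adjusted p = 4.38e-09). EIF2D averaged 54.37 ± 0.382 CPM in knockdown and 65.7 ± 4.06 CPM in control (log2 fold change −0.27, edgeR adjusted p = 0.000373).

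Of 10 tested regulators of the eIF2 kinases, 1 fell, none rose and 9 missed the threshold, where 33.3% of all genes were called. Their median log2 fold change was 0.03. The gene that fell was IMPACT, an inhibitor of GCN2 that competes for its activator GCN1. It averaged 52.99 ± 0.489 CPM in knockdown and 68.54 ± 1.87 CPM in control (SD, n = 3 each; log2 fold change −0.37, edgeR adjusted p = 2.37e-06), beside the lower EIF2AK4. Of 10 stress granule genes, 1 fell and 9 missed the threshold; the median was −0.04. The 1 gene, ATXN2, an RNA-binding protein, averaged 109.5 ± 4.79 CPM in knockdown and 123.6 ± 7.21 CPM in control (log2 fold change −0.17, edgeR adjusted p = 0.00908). Its call was lost without control replicate 3 (edgeR adjusted p = 0.0622) and without knockdown replicate 1 (edgeR adjusted p = 0.0743).

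Of 15 tested targets of the integrated stress response, 10 rose, none fell and 5 missed the threshold, where 15.3% of all genes were called higher. Their median log2 fold change was 0.30. Those with the smallest adjusted p were asparagine synthetase (ASNS, log2 fold change 0.49), the transcription factor ATF3 (0.42) and the mitochondrial folate enzyme MTHFD2 (0.38, edgeR adjusted p = 3.02e-07). MTHFD2 averaged 221.7 ± 14.7 CPM in knockdown and 170.6 ± 6.84 CPM in control (SD, n = 3 each). Among the 10 called targets, knockdown replicate 3 was the highest library for all but ATF3. TRIB3, for example, had 38.22, 37.24 and 54.0 CPM in the knockdown libraries, against 27.97, 28.8 and 27.46 CPM in the control libraries. PSAT1 passed narrowly (edgeR adjusted p = 0.0487), and the groups overlapped for PHGDH. Only ASNS, ATF3 and MTHFD2 were recomputed with other fits and with libraries left out. ATF4 itself, which is controlled mostly by translation, had 285.0, 288.1 and 303.5 CPM in the knockdown libraries, against 299.0, 302.7 and 298.3 CPM in the control libraries, and did not pass (edgeR adjusted p = 0.533). Of 12 genes of the other endoplasmic reticulum stress sensors and their targets, 3 rose, none fell and 9 missed the threshold; the median was 0.07. The 3 were ATF6, a membrane-bound sensor (log2 fold change 0.22, edgeR adjusted p = 0.000234), HERPUD1, of protein degradation at that membrane (0.18), and the chaperone DNAJB9 (0.22). The call of DNAJB9 was lost by DESeq2 (adjusted p = 0.0877) and without control replicate 1 (edgeR adjusted p = 0.0605).

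**Figure D4:**
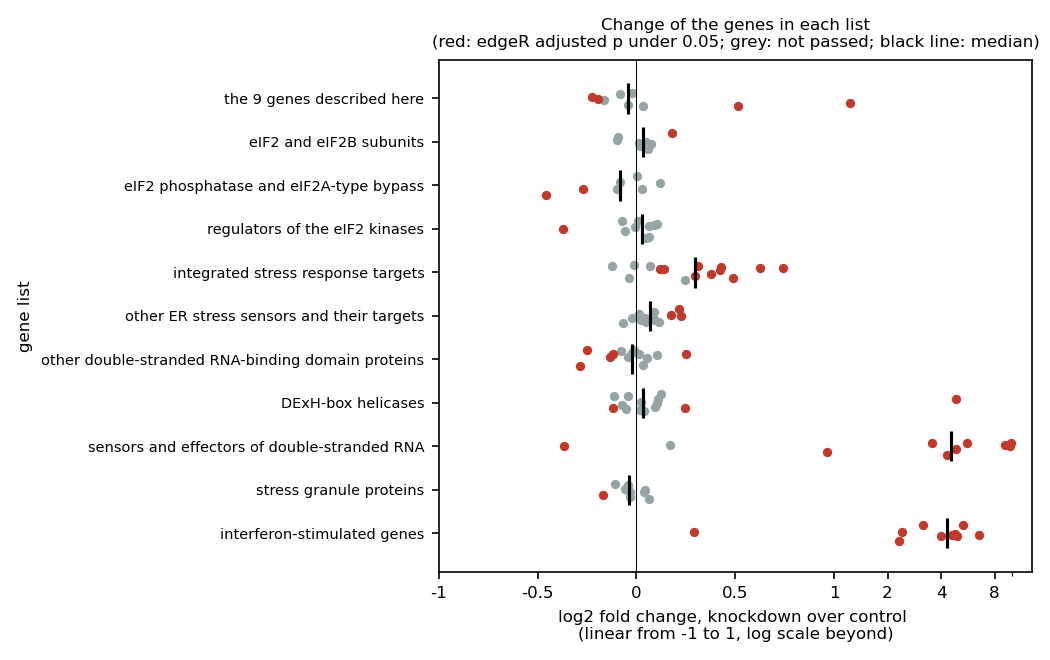
Log2 fold change (horizontal axis, knockdown over control) of each tested gene in the 9 genes described here and in 10 lists of related genes, with called genes in red and the list’s median as a black line; the axis is linear near 0 and logarithmic beyond, and OASL, at 0 in control, is drawn at its fitted value. The sensors and effectors of double-stranded RNA and the interferon-stimulated genes have medians of 4.57 and 4.31, and the other lists have medians between −0.08 and 0.30.

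Of 13 tested genes with other double-stranded RNA-binding domains, 1 rose, 4 fell and 8 missed the threshold, where 33.3% of all genes were called. Their median log2 fold change was −0.02. DICER1, the nuclease that makes microRNAs and small interfering RNAs, averaged 296.0 ± 8.6 CPM in knockdown and 360.9 ± 7.22 CPM in control (SD, n = 3 each; log2 fold change −0.28, edgeR adjusted p = 4.9e-06). SON, a splicing cofactor, fell by 0.25 on the log2 scale and MRPL44, of the mitochondrial ribosome, rose by 0.25. Of 15 DExH-box helicases, the family of DHX9, 2 rose, 1 fell and 12 missed the threshold; the median was 0.03. DHX58, a regulator of the RIG-I-like receptors, had 98 counts over the knockdown libraries and 3 over the control libraries. DHX40 averaged 133.1 ± 1.73 CPM in knockdown and 112.0 ± 1.62 CPM in control (log2 fold change 0.25, edgeR adjusted p = 4.88e-05). The fall of DHX30, which is counted in both of these lists (log2 fold change −0.12, edgeR adjusted p = 0.0311) was lost by DESeq2 (adjusted p = 0.0969), with library-size scaling (edgeR adjusted p = 0.0595) and without any 1 of control replicates 1 and 2 and knockdown replicates 1 and 2 (edgeR adjusted p between 0.0643 and 0.156).

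Most interferon-induced sensors and effectors of double-stranded RNA had larger log2 fold changes than EIF2AK2, and among those that rose the exception was the receptor TLR3 (0.97). Of 10 tested, 8 rose, 1 fell and 1 missed the threshold, where 15.3% of all genes were called higher and 18.1% lower. The list was chosen with earlier results of these data known, and DHX58 is counted both here and among the helicases. The list's median log2 fold change was 4.57. This median is the midpoint of IFIH1 (4.30) and DHX58 (4.84), and DHX58 ranged from 4.12 to 5.83 with other fits and with libraries left out. OASL, the 1 gene at 0 in control, stayed above that middle when set at its lower bound against 3 counts over the group. The median therefore could not change with that setting. OAS3 averaged 273.7 ± 34.3 CPM in knockdown and 5.827 ± 0.661 CPM in control (SD, n = 3 each; log2 fold change 5.57). OAS1 and OAS2, of the same family of oligoadenylate synthetases, averaged 112.7 ± 13.2 and 157.0 ± 24.2 CPM in knockdown, against 0.189 ± 0.0842 and 0.133 ± 0.13 CPM in control. The gene that fell was MAVS, the mitochondrial adaptor of the RIG-I-like receptors, with 162.1 ± 5.98 CPM in knockdown and 209.3 ± 4.54 CPM in control (log2 fold change −0.37, edgeR adjusted p = 8.56e-08). All 10 interferon-stimulated genes listed for comparison rose, by 0.29 (STAT2) to 6.58 (MX1) on the log2 scale, with a median of 4.31. IFIT1 rose by 5.31 and IFI44L by 4.81. STAT2 was the 1 gene of the 10 whose log2 fold change was smaller than that of EIF2AK2 (1.24), and it was also smaller than that of ADAR (0.51).

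By the shape of their levels over the 6 libraries, the genes nearest to EIF2AK2 were sought among 11647 genes with a mean of 5 CPM or more, as the smallest root-mean-square difference of log2 CPM after each gene's mean was removed. They were AGRN (difference 0.0365), PML (0.0509), FGFR3 (0.0836), TRIM21 (0.101) and TRIM22 (0.103). AGRN, a matrix proteoglycan, averaged 225.5 ± 6.06 CPM in knockdown and 100.6 ± 1.22 CPM in control (SD, n = 3 each). PML, the organiser of nuclear bodies, averaged 128.5 ± 5.39 CPM in knockdown and 57.73 ± 2.13 CPM in control. FGFR3, a growth factor receptor, averaged 65.95 ± 1.46 CPM in knockdown and 28.86 ± 2.59 CPM in control. PML, TRIM21 and TRIM22 are known as interferon-inducible. The nearest to ADAR were AMN1 (difference 0.0415), N4BP3 (0.0441) and POFUT2 (0.0504), which rose by 0.48, 0.49 and 0.45 on the log2 scale. With 6 libraries in 2 groups, such likeness is mostly the size and direction of the group difference, and it is a description.

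**Figure D5:**
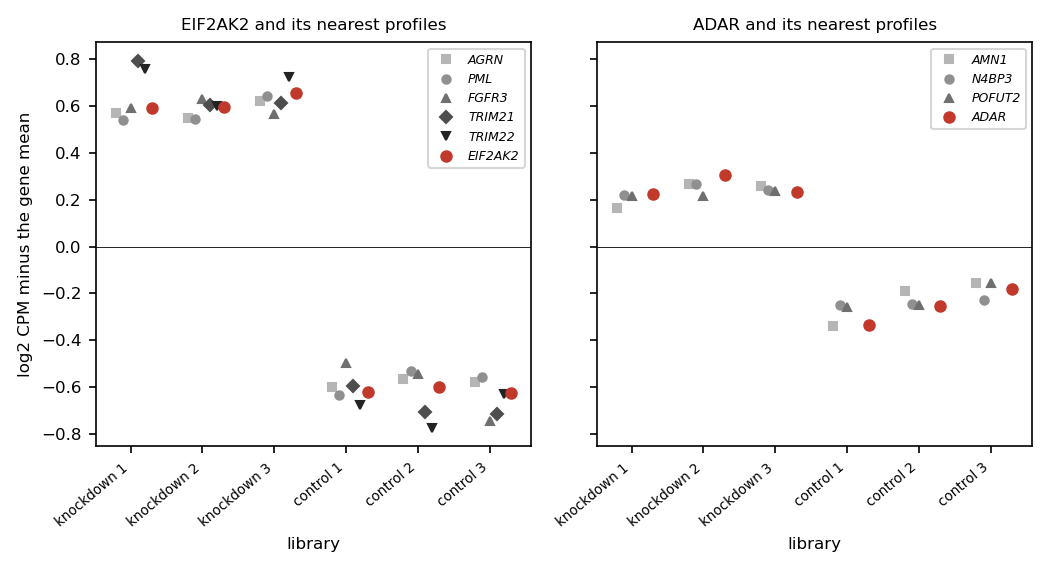
Log2 CPM minus the gene's mean over the 6 libraries (vertical axis) for EIF2AK2 and its 5 nearest genes (left) and ADAR and its 3 nearest genes (right), with knockdown libraries left of control libraries. The member is in red, and each library's points are shifted sideways to keep them apart.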

How the data were processed

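Per the submitters' processing notes, reads were trimmed with Trim Galore 0.6.6 and aligned with STAR 2.7.10a on hg38, and bedtools was used. Per the labels' protocols, a directional library kit was used. Counting, strand setting and gene models were not given in the sources used here. As deposited by the authors, each sample has a table of whole-number, unnormalised counts per gene symbol.

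Counts were filtered with filterByExpr, scaled by TMM (factors 0.9797 to 1.015) and tested with the edgeR 4.0.16 quasi-likelihood test (R 4.3.3, no covariate, 13632 genes, Benjamini-Hochberg adjustment over all of them). Intervals are 95% intervals from the test's SE, which is the log2 fold change divided by the square root of F. CPM use TMM-adjusted library sizes. Alternatives used limma 3.58.1 and DESeq2 1.42.0. Python 3.11.15 and SciPy 1.17.1 gave the exact permutation tests. In simulated knockdown and control counts for 13632 genes, 200 were changed. The test recovered 62.0% of genes changed 1.2-fold, 83.7% changed 1.5-fold and 98.0% changed 2-fold, with 12 false calls. A far larger share, 33.3% of genes, was called in the real data, so these rates may not hold there. No pair of replicates agreed within sampling noise (chi-square per degree of freedom 1.23 to 1.994).

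Members and lists were chosen with earlier results of these data known. Named were all members, COMMD3, BMI1 and COMMD3-BMI1, up to 3 called genes with the smallest adjusted p per list, and the nearest profiles.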

Additional observations from a re-analysis of the deposited data

How the results depend on the processing

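The log2 fold changes of the 9 genes were recomputed under 14 alternatives each (other scalings, filters and tests, the replicate number as a block, and each library left out), 126 values in all, of which 122 kept their direction and their side of the threshold. EIF2AK2 ranged from 1.22 to 1.26, ADAR from 0.47 to 0.55, EIF2AK4 from −0.27 to −0.20 and PRKRA from −0.21 to −0.18, all past the threshold. The weakest of these was PRKRA by DESeq2 (adjusted p = 0.0445). With a library left out, EIF2AK3 ranged from −0.0601 to 0.0264, changing sign without control replicate 2 (0.0088) and without knockdown replicate 1 (0.0264), and ADARB1 from −0.2563 to −0.0675. ADARB1 also passed with the replicate block (−0.18, edgeR adjusted p = 0.0473); the cause was not tested.

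Same-numbered knockdown and control libraries deviated together with correlations of 0.0792, 0.00548 and 0.0713, and knockdown replicate 2 correlated best with another number, so the numbers are not taken as pairs. The block gave 2458 higher and 2790 lower genes, against 2084 and 2461. Among the 9 genes, 2 were higher under each alternative fit, and 2 lower (3 with the block and without knockdown replicate 3). With a change of 1.5-fold or more required, 1 was higher and 0 lower, and of all genes 317 were higher and 351 lower. Library size alone gave 2505 higher and 2188 lower genes, DESeq2 called 1100 higher and 1646 lower, and an adjusted p under 0.01 gave 1224 higher. Leaving out a library gave 1606 to 1964 higher and 1949 to 2333 lower genes. The share of EIF2AK2 among the kinases differed by 8.08 percentage points per exon kb and by 16.86 per coding kb. Of 462 values for 33 other named genes, 450 kept direction and side, 12 lost their call and 0 changed sign. ADARB1 had the lowest counts of the 9 genes (804 in knockdown and 888 in control); how far depth limits its value was not tested.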
